A study of Mus musculus with 4 samples.

Results

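Kidney epithelium secretes proteins that hold back microbes in the urine and the tubule lumen. This account covers 8 such genes or genes of related secreted proteins: Defb1, Lcn2, Rnase4, Ang, Wfdc2, Pigr, Spp1 and Spp2. They were taken as all rows of the deposited table whose platform annotation gave exactly 1 gene symbol, where that symbol was on the list. This gave 12 probe sets of 7 genes, out of 45101 probe sets and 18194 single gene symbols on the array, and Spp1 was not analysed here. The genes were chosen by their signals under both diets, which were already known, so their values between the diets are a description and carry no test.

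The iron-deficient group was made of 2 pools of 16 kidneys from C57BL/6 embryos at embryonic day 15, whose dams ate a synthetic diet with 2 to 6 ppm iron. The control group was made of 2 pools of 16 kidneys of the same strain and day, whose dams ate a diet with 220 ppm iron. In both groups the dams were 8 weeks old at the start, ate their diet for 3 weeks before gestation and through pregnancy, and were mated with C57BL/6 males, with at least 20 mice per diet. RNA of each pool was hybridised to 1 Affymetrix array. The labels name no allele or transgene, and the iron status of dams or embryos was not analysed here.

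These proteins act in different ways. Defb1 encodes a beta-defensin, a small cationic peptide held together by disulfide bonds that is made constitutively by epithelia and damages bacterial membranes. Lcn2 encodes lipocalin 2, which binds the siderophores that bacteria release to take up iron, and Rnase4 and Ang encode secreted ribonucleases with antimicrobial activity, the second of which, angiogenin, also promotes vessel growth. Wfdc2 encodes a secreted protein with whey acidic protein domains, the fold of several protease inhibitors, and Pigr encodes the receptor that carries polymeric IgA and IgM across epithelia. Spp2 encodes secreted phosphoprotein 24, a cystatin-related protein that binds bone morphogenetic proteins.

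The pools differed in ways that touch every value below. The labels give the sex of the samples as female, yet the Y-linked gene Eif2s3y had signals of 253.6 and 20.8 in iron-deficient pools 1 and 2, against 594.5 and 600 in control pools 1 and 2. Xist, the RNA that silences an X chromosome, read 3427 and 1543 in the iron-deficient pools, against 927 and 168 in the control pools. Iron-deficient pool 1 was the array least like any other. Over log2 signals of the tested probe sets, its highest correlation with another array was 0.913. That value was 0.970 for iron-deficient pool 2 and 0.978 for each control pool. Over all tested probe sets the log2 differences between the iron-deficient pools had an SD of 0.964, against 0.504 between the control pools. Iron-deficient pool 1 lay below both control pools for 52.6% of tested probe sets, and iron-deficient pool 2 for 40.5%. Each pool's own value is therefore given for the 8 genes, and the median in each iron-deficient pool for the lists where it differed most. Precision is limited by having 2 arrays per diet. The labels do not say whether pools came from separate litters, so the limma p-values cover no more than the pool-to-pool spread, possibly a technical one. In whole kidneys, fewer cells of a type and less RNA per cell cannot be told apart.

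Rnase4 and Ang lie at 1 locus, and their RefSeq promoters in GRCm38.p6 begin the account because the pair shares an annotated start. Among 27025 genes of the RefSeq promoter table, 67 (0.248%) share an entry with another gene. Of the 8 genes, 7 matched an entry, and Defb1 did not. The 250 bases before the start common to Rnase4 and Ang (chr14:51090827-51091076, plus strand), before the further start listed for Rnase4 (chr14:51095750-51095999, plus strand) and before the start of Spp2 (chr1:88406760-88407009, plus strand), whose signal differed far more between the diets, are shown 5′ to 3′. Capitals would mark a match to ACGTG, the core of the hypoxia response element, GTTAAT, part of the site of the factor HNF1, or TATAAA, the box that sets the start of many genes, on either strand.
Rnase4 and Ang: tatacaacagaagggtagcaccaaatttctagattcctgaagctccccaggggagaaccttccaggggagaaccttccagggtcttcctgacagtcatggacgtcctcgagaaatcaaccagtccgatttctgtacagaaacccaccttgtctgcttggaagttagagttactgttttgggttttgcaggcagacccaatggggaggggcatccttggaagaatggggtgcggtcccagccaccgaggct
Rnase4, further start: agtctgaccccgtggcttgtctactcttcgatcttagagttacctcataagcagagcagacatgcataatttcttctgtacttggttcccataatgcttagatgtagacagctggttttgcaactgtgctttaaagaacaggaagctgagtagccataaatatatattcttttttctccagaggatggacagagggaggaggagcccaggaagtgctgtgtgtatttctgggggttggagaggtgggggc
Spp2: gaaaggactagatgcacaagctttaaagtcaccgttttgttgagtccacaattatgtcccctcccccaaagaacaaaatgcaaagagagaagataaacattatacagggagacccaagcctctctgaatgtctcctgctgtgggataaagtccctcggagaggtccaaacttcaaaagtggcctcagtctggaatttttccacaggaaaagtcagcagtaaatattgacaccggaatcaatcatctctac

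None of the 3 windows shown held any of the 3 motifs, nor did those of Lcn2 and Wfdc2. One of the Spp1 windows held GTTAAT and TATAAA, which began 194 and 211 bases before the start. Pigr held ACGTG on both strands at 1 overlapping place, within CACGTG. Over all 32851 promoter entries, 16.6% of such windows held ACGTG, 6.43% held GTTAAT and 12.4% held TATAAA. No match says only that these letters are not in this window.

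Of the 12 probe sets, 9, from 6 genes, passed the filter that left out the lowest 40% of probe sets by mean log2 signal. The deposited signals are intensities on a linear scale, and the log2 differences given are iron-deficient minus control. In 7 of the 9, both iron-deficient pools lay below both control pools, and in none did both lie above. Over all 27022 tested probe sets the share below was 25% and the share above 11.8%. The genes were picked with this contrast in view, so nothing is read from the count. The 9 had a median log2 difference of -0.59, against -0.10 over all tested probe sets, and they fell into 3 kinds: Defb1 and Spp2 far lower in both iron-deficient pools, Lcn2, Rnase4 and Ang lower mainly in iron-deficient pool 1, and Wfdc2 overlapping between the diets.

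**Figure D1:**
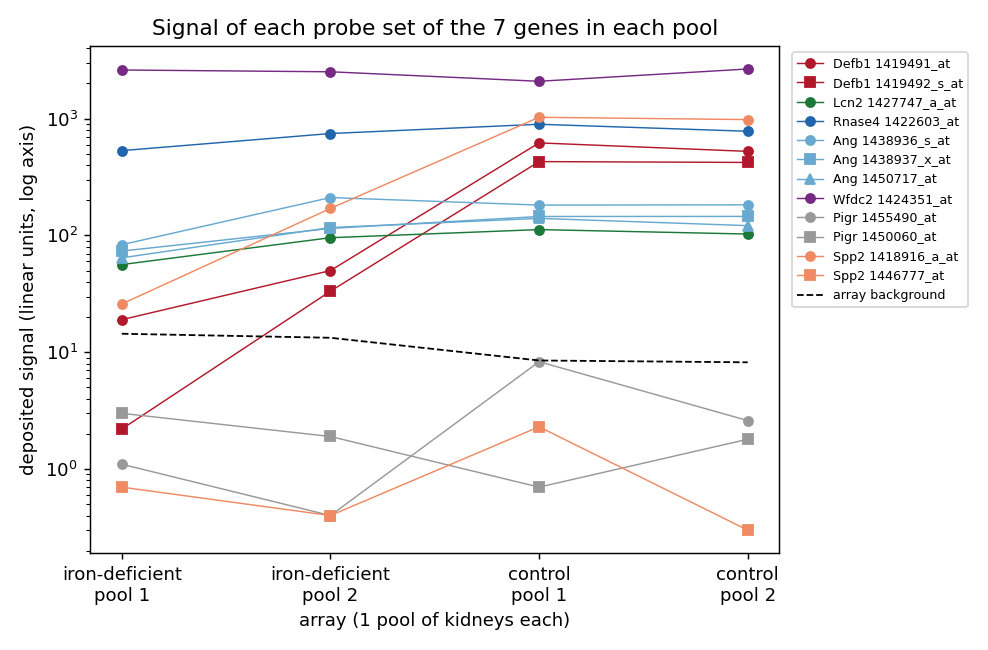
Deposited signal (linear units on a log axis) of each of the 12 probe sets in each of the 4 pools, 1 point per array, with thin lines only joining points of 1 probe set and the background of each array dashed. Defb1 and Spp2 lie far lower in the iron-deficient pools, Wfdc2 stays between 2088 and 2660, and both Pigr probe sets and 1 Spp2 probe set lie below background on every array.

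Defb1, the beta-defensin, had signals of 19 and 50 at its brighter probe set (1419491_at) in iron-deficient pools 1 and 2, against 619.9 and 524.4 in control pools 1 and 2. The groups did not overlap, and the iron-deficient signals were 3.32% and 8.74% of the control mean. Means were 34.5 ± 21.9 in the iron-deficient pools and 572 ± 67.5 in the control pools (SD, n = 2 each), a log2 difference of -4.21 ± 0.53 (SE from the limma fit). With iron-deficient pool 1 alone the difference was -4.91, and with pool 2 alone -3.51. Only 8 of the 27022 tested probe sets had a lower difference.

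The other Defb1 probe set (1419492_s_at) read 2.2 and 33.3 in the iron-deficient pools, against 428.7 and 421.6 in the control pools. The first of these values lay below the background of its array, set by the brightest among 27 control probe sets without spiked target (14.4 and 13.3 in the iron-deficient pools, 8.5 and 8.2 in the control pools). With that signal set to background the log2 difference was -4.28, close to that of the brighter probe set, and it was -5.63 ± 1.22 with the signal as deposited. Both Defb1 probe sets thus had the lower signal in iron-deficient pool 1, and the control pools differed by 0.24 and 0.02 on the log2 scale.

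Spp2, the phosphoprotein, had signals of 25.9 and 170.2 in the iron-deficient pools at its bright probe set (1418916_a_at), against 1027 and 981.2 in the control pools. All 4 signals were above background, and the groups did not overlap. The iron-deficient pools stood at 2.58% and 17.0% of the control mean, and averaged 98.05 ± 102 against 1004 ± 32.4 in the control pools (SD, n = 2 each). Its log2 difference was -3.92 ± 0.88 (SE), and 11 tested probe sets had a lower one. The iron-deficient pools lay 2.72 log2 units apart, more than the 1.40 between them for the brighter Defb1 probe set, so that the difference was -5.28 with iron-deficient pool 1 alone and -2.56 with pool 2 alone. A second Spp2 probe set (1446777_at) was at or below background on all arrays, with signals up to 2.3, and was not tested.

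Lcn2, the siderophore-binding lipocalin, had signals of 56.3 and 95.6 in iron-deficient pools 1 and 2, against 112.2 and 102.8 in the control pools. Both iron-deficient pools were lower, but pool 2 stood at 88.9% of the control mean and pool 1 at 52.4%. The log2 difference was -0.55 ± 0.39 (SE), made up of -0.93 in pool 1 and -0.17 in pool 2, beside a gap of 0.13 between the control pools. By rank, which no scaling of an array changes, the Lcn2 signal was at percentiles 55.2 and 61.8 of the iron-deficient arrays and 62.0 and 62.7 of the control arrays.

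**Figure D2:**
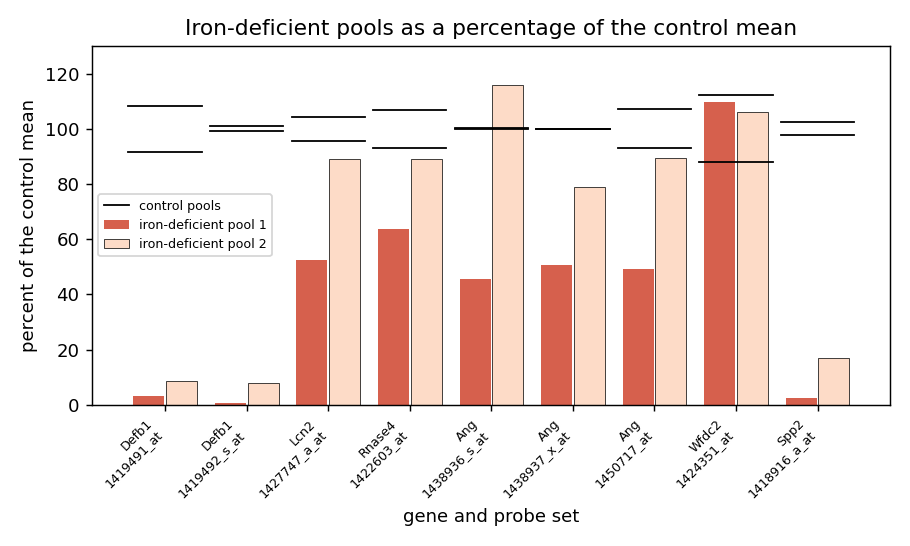
Signal of iron-deficient pool 1 (dark bars) and pool 2 (light bars) as a percentage of the control mean, for the 9 tested probe sets, with the 2 control pools as black lines. Both Defb1 probe sets and Spp2 stand at 17.0% or less in both pools, while for Lcn2, Rnase4 and Ang pool 1 stands between 45.7% and 63.6% and pool 2 between 79.0% and 116%.

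Rnase4 had signals of 532.1 and 745.5 in the iron-deficient pools, against 894.9 and 779.4 in the control pools. Its iron-deficient pools, at 63.6% and 89.1% of the control mean, were both lower, with a log2 difference of -0.41 ± 0.35 (SE). In iron-deficient pool 2 the difference from the control mean of log2 signals was -0.16, smaller than the 0.20 between the control pools. At percentiles 84.7 and 87.6 of the iron-deficient arrays and 89.5 and 87.9 of the control arrays, Rnase4 was also lower by rank in both iron-deficient pools.

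Ang, which shares the promoter shown above with Rnase4, was measured by 3 probe sets. The one without a suffix for shared sequence (1450717_at) read 64.3 and 116.8 in the iron-deficient pools, against 140 and 121.3 in the control pools, a log2 difference of -0.59 ± 0.41 (SE). The x_at probe set, a design open to cross-hybridisation, read 73.5 and 114.8 in the iron-deficient pools, against 145.3 and 145.5 in the control pools (-0.66 ± 0.36). The s_at probe set, a design that matches several transcripts, read 83.3 and 211 in the iron-deficient pools, against 181.9 and 182.8 in the control pools (-0.46 ± 0.51). Here iron-deficient pool 2 was the highest of all 4 arrays and the groups overlapped, and the difference was 0.21 with pool 2 alone and -1.13 with pool 1 alone. The 3 Ang probe sets stood at 45.7% to 50.6% of the control mean in iron-deficient pool 1, where Rnase4 stood at 63.6%. Ang belongs to a family of closely related mouse genes, so that its s_at and x_at values are uncertain.

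Wfdc2 had signals of 2608 and 2518 in the iron-deficient pools, against 2088 and 2660 in the control pools. The iron-deficient signals lay between those of the control pools, with means of 2563 ± 63.6 and 2374 ± 405 (SD, n = 2 each, iron-deficient and control) and a log2 difference of 0.12 ± 0.33 (SE). That sign turned after quantile normalization, at -0.082, and without control pool 1, at -0.054. Wfdc2 was at the 97.0 and 97.5 percentiles of the iron-deficient arrays and the 97.3 and 97.9 percentiles of the control arrays.

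Pigr, the polymeric immunoglobulin receptor, was below background on every array at both probe sets. One probe set (1455490_at) read 1.1 and 0.4 in the iron-deficient pools, against 8.3 and 2.6 in the control pools. The other (1450060_at) read 3 and 1.9 in the iron-deficient pools, against 0.7 and 1.8 in the control pools. The probe sets were ordered in opposite ways, both groups lay below background, and no fold is given.

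**Figure D3:**
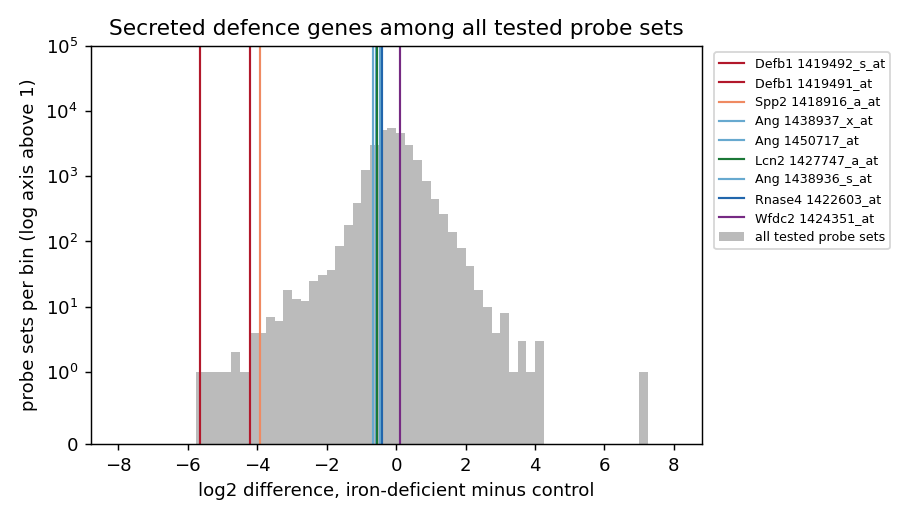
Histogram of the log2 differences (iron-deficient minus control) of all 27022 tested probe sets in bins of 0.25, counts on a log axis above 1, with 1 vertical line for each of the 9 probe sets described. Defb1 (-5.63 and -4.21) and Spp2 (-3.92) lie in the far lower tail, and the other 6 lie between -0.66 and 0.12.

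The genes whose 4-pool profiles lay nearest were sought among 23520 tested probe sets with 1 symbol, by the largest gap over the 4 pools between log2 signals centred on the control mean. For Defb1 they were Cyp2d26, a cytochrome P450 (largest gap 0.28), and Slc17a1, a sodium-dependent phosphate transporter (0.35). Cyp2d26 read 10.8 and 39.1 in the iron-deficient pools, against 382.3 and 404.7 in the control pools. For Spp2 they were Slc5a8, a monocarboxylate transporter (0.45), and Mep1b, the beta subunit of the metalloprotease meprin (0.48). Mep1b read 14.1 and 68.7 in the iron-deficient pools, against 390.3 and 394.8 in the control pools. No probe set lay within 0.25 of Defb1 or Spp2. All 4 of these nearest genes were below background in iron-deficient pool 1, so that their gaps and order are uncertain.

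Profiles like those of the other genes were common. Within 0.25 lay 2251 probe sets for Lcn2, 2713 for Rnase4, 1082 for Ang and 1589 for Wfdc2. Profiles were those of the brightest probe set of each gene. For Ang this was the s_at probe set, where iron-deficient pool 2 was the highest array. The other Ang probe sets had both iron-deficient pools below both control pools, and no nearest genes were sought for them. The nearest were Itprid2 and Shld1 for Lcn2 (0.01 and 0.02), Magi3 and the peroxisomal transporter Abcd3 for Rnase4 (both 0.02), Fanci, of the Fanconi anaemia DNA repair pathway, and Fndc4 for Ang (both 0.03), and the protease inhibitor Cstb and the translation factor Eif4h for Wfdc2 (both 0.03).

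Other genes of these pathways were read from lists, 1 probe set per gene, the brightest, and other probe sets of a gene can differ from it. The pathway and cell type lists overlap. Lrp2, Cubn, Umod, Lyz2, Calb1 and Cd79b are each on more than 1 list, where the same values are counted again. Limma called no probe set at an adjusted p of 0.05 in either direction over all 27022 (0% higher and 0% lower), the smallest adjusted p being 0.289, so that no list had a member that passed. At an unadjusted p of 0.05, 1.14% of tested probe sets were higher and 2.81% lower. With 1 probe set per gene these shares of 12997 genes were 1.26% and 3.3%, and 13.1% had both iron-deficient pools above both control pools while 26% had both below. Counts at the unadjusted p are described, not called.

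Of 15 tested genes of other epithelial defence proteins, 6 were lower and 1 higher at an unadjusted p of 0.05, 8 had both iron-deficient pools lower and 3 both higher, and the median was -0.52. Defb19, another beta-defensin gene, read 9.8 and 9.6 in the iron-deficient pools, both below background, against 53.3 and 52.5 in the control pools. It was at least 3.82-fold lower (limma adjusted p = 0.452). A further one, Defb29, read 16.8 and 19.6 in the iron-deficient pools, against 37.2 and 59 in the control pools, a log2 difference of -1.37 ± 0.37 (limma adjusted p = 0.852). Umod, the urinary protein uromodulin that binds bacteria, read 14.8 and 29.3 in the iron-deficient pools, against 104 and 111 in the control pools (-2.37 ± 0.43). Cfb, complement factor B, read 19.8 and 37.9, against 65.6 and 72.5 in the control pools (-1.33 ± 0.42). Defb2, Defb3 and Defb4, along with 9 further listed genes, were at or below background in all pools.

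Genes of defence induction, which hold the receptors and factors that switch on Lcn2 and other inducible genes, had a median of -0.28 (-0.46 in iron-deficient pool 1 and -0.06 in pool 2). None of 24 passed an unadjusted p of 0.05, 8 had both iron-deficient pools lower and 2 both higher. Tlr4, the lipopolysaccharide receptor, read 21.3 and 26.1 in the iron-deficient pools, against 41.7 and 33.8 in the control pools (-0.67 ± 0.33). Another tested Tlr4 probe set overlapped between the diets, at 15 and 21.5 in the iron-deficient pools against 13.2 and 24.4 in the control pools. Its relative Tlr2, a receptor for bacterial lipoproteins, differed by -0.79 ± 0.32, and the adaptor Traf6 by -0.55 ± 0.32. Cebpb, a transcription factor of acute phase genes, read 74 and 39.1 in the iron-deficient pools, against 25.2 and 28.9 in the control pools (1.00 ± 0.42).

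Among lipocalin partners and relatives, 2 of 7 tested genes were lower at an unadjusted p of 0.05, and the median was -0.15. That median differed by pool, at -1.03 in iron-deficient pool 1 and 0.17 in pool 2, and was -1.20 under a filter that removed 60% of probe sets. The 2 genes were Lrp2, megalin, and Cubn, cubilin, which together take up filtered proteins in the proximal tubule, megalin binding lipocalin 2 among others. Cubn read 42.1 and 94.1 in the iron-deficient pools, against 379.5 and 326.1 in the control pools (-2.48 ± 0.47). Lrp2 read 100.6 and 232.6 in the iron-deficient pools, against 625.4 and 479.8 in the control pools (-1.84 ± 0.49). Slc22a17, a reported receptor for lipocalin 2, read 308 and 454.8 in the iron-deficient pools, against 306.1 and 285.6 in the control pools (0.34 ± 0.35), and Bdh2, an enzyme linked to a mammalian siderophore, differed by -0.57 ± 0.42.

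The ribonuclease list had 4 tested genes, with a median of 0.03 (-0.30 in iron-deficient pool 1 and 0.25 in pool 2) and none at an unadjusted p of 0.05. Rnh1, the cytosolic inhibitor that binds angiogenin and related ribonucleases, read 668 and 1360 in the iron-deficient pools, against 1135 and 1380 in the control pools (-0.39 ± 0.44). Plxnb2, a receptor for angiogenin, differed by -0.14 ± 0.43, the growth factor receptor Egfr by 0.19 ± 0.33 and the proteoglycan Sdc4 by 0.59 ± 0.40. Another tested Egfr probe set was higher in both iron-deficient pools, at 138.1 and 135 against 110.2 and 99.6 in the control pools. So was a further Egfr probe set, at 37.4 and 26 against 14.2 and 14.3. The other tested Sdc4 probe set overlapped, at 161.1 and 257.8 in the iron-deficient pools against 257.4 and 252.5 in the control pools. The angiogenin relatives Ang2 and Ang3 were at or below background in all pools.

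Partners of Pigr had a median of -0.29 over 7 tested genes (-0.61 in iron-deficient pool 1 and 0.03 in pool 2), none at an unadjusted p of 0.05. Rab25, a small GTPase of apical recycling, differed by -0.82 ± 0.52, Mal2, a protein of transcytosis, by -0.48 ± 0.35, and the exocyst subunit Exoc4 by 0.41 ± 0.31. Another tested Exoc4 probe set overlapped, at 967.7 and 549.2 in the iron-deficient pools against 930.9 and 938.1 in the control pools. A further one was higher in both iron-deficient pools, at 852.1 and 883.4 against 822 and 719.7. Jchain, which joins the immunoglobulins that Pigr carries, read 11.2 and 5.4 in the iron-deficient pools, against 16.1 and 5.3 in the control pools, and was not tested. Cd79b, of the B cell receptor, read 96.7 and 199.9 in the iron-deficient pools, against 189.8 and 201.7 in the control pools (-0.49 ± 0.44).

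Receptors of osteopontin, the Spp1 protein, had a median of -0.21 over 11 tested genes (-0.55 in iron-deficient pool 1 and 0.05 in pool 2), and none passed an unadjusted p of 0.05. Itgav, the integrin subunit that binds its RGD motif, read 5525 and 2811 in the iron-deficient pools, against 2482 and 2528 in the control pools (0.65 ± 0.43). The tested probe set of Itgb6, the beta subunit of an epithelial integrin, read 13.6 and 12.7 in the iron-deficient pools, both below background, against 18.4 and 32 in the control pools. Its untested probe set read 17.5 and 5.3 in the iron-deficient pools, the first of these above background, against 31.2 and 26.3 in the control pools. Itgb8 and Itgb3 differed by -0.56 ± 0.34 and -0.27 ± 0.34. Mineral and matrix proteins, the list nearest to the bone role of Spp2, had a median of 0.01 over 8 tested genes, again with none at an unadjusted p of 0.05. In that list the pyrophosphate transporter Ank differed by -0.48 ± 0.31, the matrix protein Sparc by 0.43 ± 0.33, the calcification inhibitor Mgp by -0.39 ± 0.39 and Bmp2, a ligand that secreted phosphoprotein 24 binds, by -0.34 ± 0.37. The other tested Sparc probe set overlapped, at 3466.6 and 3993 in the iron-deficient pools against 3169 and 3863.6 in the control pools.

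**Figure D4:**
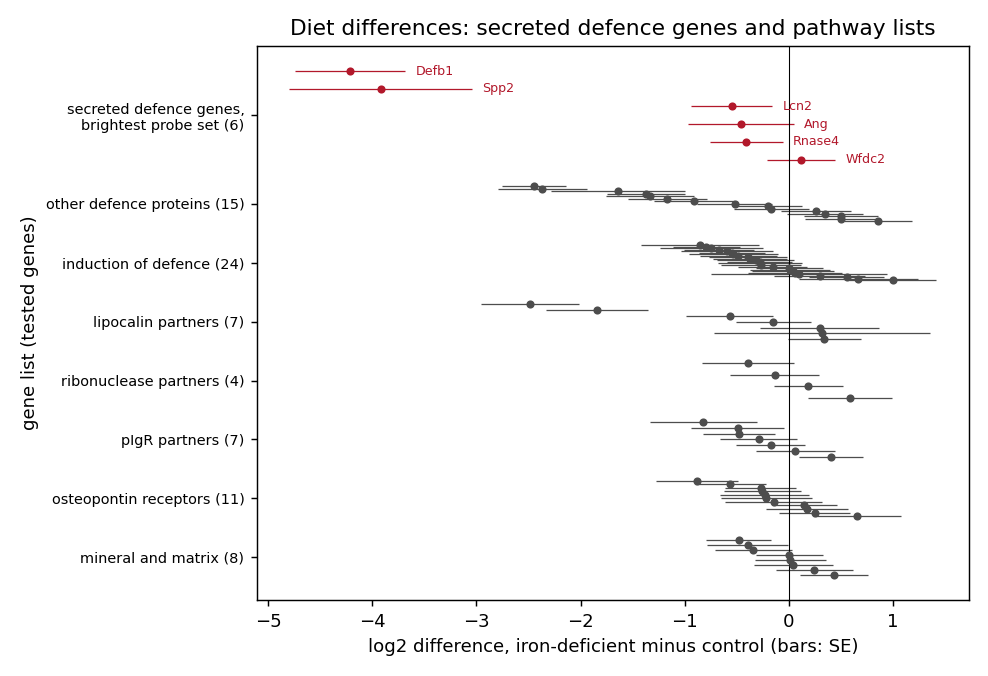
Log2 difference (iron-deficient minus control, bars are standard errors) of the brightest tested probe set of 6 secreted defence genes and of each tested gene in 7 pathway lists, 1 point per gene. Defb1 and Spp2 lie below every gene of these lists, where Cubn has the lowest difference at -2.48.

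Markers of kidney epithelia differed between the pools to different extents. All 13 tested proximal tubule markers had both iron-deficient pools below both control pools, 11 at an unadjusted p of 0.05. Their median was -2.19 (-2.61 in iron-deficient pool 1 and -1.76 in pool 2). Their summed signal was 2019 and 3294 in the iron-deficient pools, 27.0% and 44.1% of the control mean, against 7593 and 7364 in the control pools. Single markers stood at 1.15% to 51.9% of their control mean in iron-deficient pool 1 and at 7.51% to 95.8% in pool 2. Only Fbp1, a gluconeogenic enzyme, had a lower difference than Defb1 or Spp2, at -5.09 ± 0.87, with 1 of 2 iron-deficient signals above background. Ass1 was at or below background in all pools. The part of these markers in the Defb1 and Spp2 values was not tested.

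Further epithelial lists had medians nearer to 0. Loop of Henle and distal tubule markers had a median of -1.82, with 6 of 8 lower in both iron-deficient pools and 5 at an unadjusted p of 0.05, and a summed signal of 2695 and 3839 in the iron-deficient pools, against 4613 and 4689 in the control pools. Collecting duct markers, of the segment known to make Lcn2 and Rnase4, had a median of -0.40, with 9 of 15 lower in both iron-deficient pools and 4 at an unadjusted p of 0.05. Their summed signal, 9071 and 12052 in the iron-deficient pools and 11093 and 12027 in the control pools, stood at 78.5% of the control mean in iron-deficient pool 1 and at 104% in pool 2. The part of these markers in the Lcn2, Rnase4 and Ang values was not tested. Foxi1, the regulator of intercalated cells, read 17.8 and 57.5 in the iron-deficient pools, against 122.5 and 128 in the control pools (-1.97 ± 0.60). Urothelial markers had a median of -0.81, with 5 of 8 lower in both iron-deficient pools, 3 of 8 at an unadjusted p of 0.05, and a sum of 536.1 and 973.1 in the iron-deficient pools, against 1321 and 1498 in the control pools.

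Cells outside the epithelium also express some of these genes. Lcn2 is a granule gene of neutrophils, and granulocyte markers were brighter in the iron-deficient pools. S100a8, a calcium-binding protein of neutrophils, read 700.3 and 544.3 in the iron-deficient pools, against 132.9 and 154.9 in the control pools (2.11 ± 0.33). Of 14 listed genes 7 were tested, and Ctsg, Camp and Ngp passed the filter with at least 1 control signal below background. The median of the tested genes was 3.03 (3.59 in iron-deficient pool 1 and 2.15 in pool 2), and 2.54 with low signals set to background. All had both iron-deficient pools above both control pools. Their summed signal was 2524 and 1781 in the iron-deficient pools, against 447.2 and 467.3 in the control pools, beside the lower Lcn2 signals given above. The part of these cells in the Lcn2 values was not tested. Ltf, the iron-binding protein lactoferrin of the same granules as Lcn2, read 22.7 and 19.5 in the iron-deficient pools, against 3.2 and 7.5 in the control pools, above background in the iron-deficient pools alone, and was not tested. Chil3 was at or below background in all pools. Mpo, the myeloperoxidase of earlier granules, read 388.4 and 119.7 in the iron-deficient pools, against 13.1 and 11.6 in the control pools (4.13 ± 0.60).

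Hepatocytes express Rnase4, Ang and Spp2. Hepatocyte markers had a median of -0.18 over 8 tested genes (-1.12 in iron-deficient pool 1 and 0.99 in pool 2). None was separated by diet or passed an unadjusted p of 0.05. Their summed signal was 336.4 and 3200 in the iron-deficient pools, against 1731 and 1573 in the control pools. Afp, the fetal serum protein, read 98.3 and 1290 in the iron-deficient pools, against 948.5 and 846.4 in the control pools. Of the defining markers, Tat was at or below background in all pools. The sum stood at 20.4% of the control mean in iron-deficient pool 1 and at 194% in pool 2, beside 2.58% and 17.0% for Spp2. The part of such cells in the values was not tested. Macrophage markers had a median of -0.59 over 9 tested genes (-0.86 in iron-deficient pool 1 and -0.15 in pool 2), 1 of them lower at an unadjusted p of 0.05, with a sum of 1812 and 2396 in the iron-deficient pools, against 2722 and 3110 in the control pools. B and plasma cell markers had a median of -0.47 over 2 tested genes (-1.17 in iron-deficient pool 1 and 0.24 in pool 2), neither at an unadjusted p of 0.05. Skeletal muscle markers had a median of 1.67 over 6, with 2 higher at an unadjusted p of 0.05. Of these 2, Myod1 read 36.8 and 33.9 in the iron-deficient pools, against 12.4 and 10.3 in the control pools. Myog read 56.5 and 129.9 in the iron-deficient pools, against 16.4 and 16.7 in the control pools. The other tested muscle markers were bright mainly in iron-deficient pool 2. The median of all 6 was 0.20 in iron-deficient pool 1 and 2.91 in pool 2. Their summed signal was 350.5 and 2040 in the iron-deficient pools, against 405 and 292 in the control pools. Sex-linked genes, a list that joins Xist with Y-linked genes, had a median of -2.90 over 3 (-0.71 in iron-deficient pool 1 and -4.84 in pool 2). With low signals set to background the median was -1.85. Xist was higher and Eif2s3y lower at an unadjusted p of 0.05, so the median stands for no common direction.

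**Figure D5:**
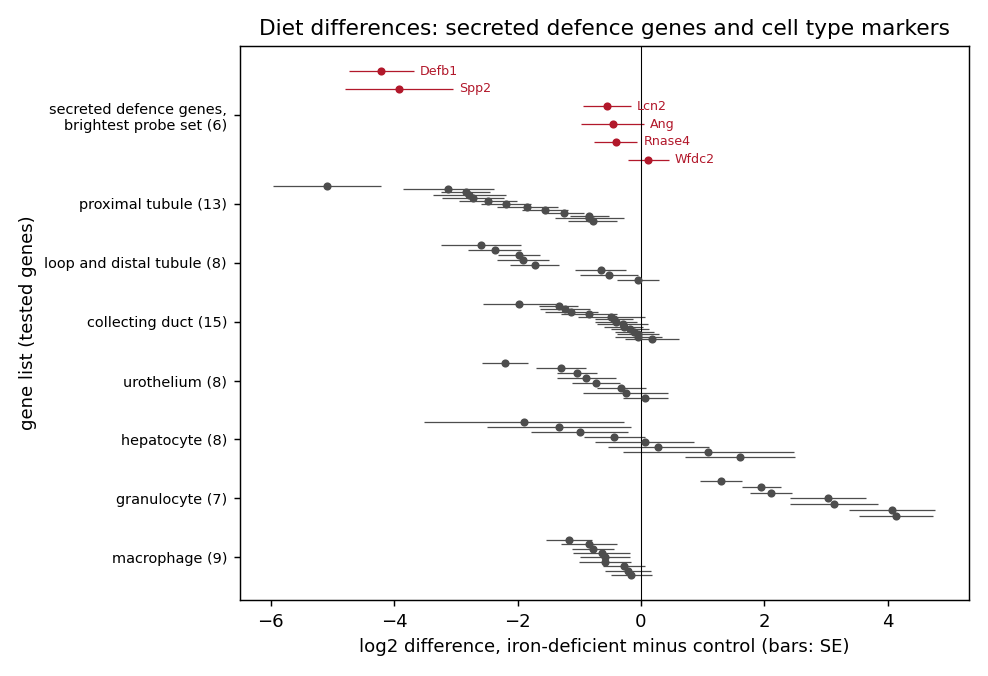
Log2 difference (iron-deficient minus control, bars are standard errors) of the brightest tested probe set of 6 secreted defence genes and of each tested marker in 7 cell type lists, 1 point per gene. All 13 proximal tubule markers lie below 0, with Fbp1 at -5.09, all 7 granulocyte markers lie above 0, and hepatocyte markers lie on both sides.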

How the data were processed

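Affymetrix arrays measured RNA from 4 pools of embryonic kidney, grouped by the diet and pool number in the labels. The deposited values are intensity values on a linear scale, 1 per probe set and array, up to 13763, and 0 columns were left unused. All 4 arrays share a mean of 250.0 once 2% of values are trimmed from either end. RMA is named in the submitters' processing notes, but the values are linear and of unequal distribution, and which software produced such values, and on which genome build, is not stated in those notes.

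Zeros were set to 0.1 and log2 was taken. After 64 control probe sets were removed, the lowest 40% of 45037 by mean log2 signal (limit 17.3) were left out. Limma 3.58.1 in R 4.3.3 (lmFit, eBayes, two-sided, diet as the only term, 2 residual and 3.49 prior degrees of freedom) was run with Benjamini-Hochberg adjustment over 27022 probe sets, and tested on simulated data. Of the 45037, 34945 have 1 symbol, 932 several and 9160 none. A gene not above background in both pools of a diet has only a bound, and "at least" folds set dim signals to background.

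The genes and lists were chosen with earlier results of these data known. The text names all 8 genes, the 4 genes of each pathway list with the smallest p, and the 2 nearest profiles per gene. Jchain, Ltf, Afp, Foxi1, Fbp1, Mpo, S100a8, Ctsg, Camp, Ngp, Myod1, Myog and the genes at background were named after their values were seen. Alternatives were other filters, normalizations, an offset of 16, an intensity trend, robust hyperparameters, the replicate block, each pool left out, and 1 probe set per gene.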

Additional observations from a re-analysis of the deposited data

How the results depend on the processing

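Over 13 alternatives, 110 of 113 differences of single probe sets of the 6 genes moved by less than the spread between pools without a change of sign. Much of that count was fixed in advance. Another filter, trend, hyperparameters, block or 1 probe set per gene leaves a difference as it was. Leaving out a pool cannot move it beyond this spread. The dimmer Defb1 probe set ranged from -7.59 to -3.67 and is still among the 110, so nothing is read from the count. The 3 that changed sign were the log2 difference of Wfdc2 after quantile normalization, at -0.082, and without control replicate 1, at -0.054 (range -0.054 to 0.30 with a pool left out), and that of the s_at probe set of Ang without iron-deficient replicate 1 (range -1.13 to 0.21 with a pool left out). Defb1 ranged from -4.91 to -3.51 at its brighter probe set, Spp2 from -5.28 to -2.56, Lcn2 from -0.93 to -0.17 and Rnase4 from -0.65 to -0.16. Of 9 tested probe sets, 7 were lower in both iron-deficient pools, against 4 after median centring and 4 of 6 with 1 probe set per gene, and 7 to 8 with a pool left out. None was higher, against 1 without a filter, which was a Pigr probe set below background, and 0 to 1 with a pool left out. Limma called 0 probe sets at an adjusted p of 0.05, against 82 higher and 119 lower after median centring, and 1 higher and 12 lower with 1 probe set per gene. With 1 pool left out there were 0 to 42 higher and 0 to 33 lower, with calls when control pool 1 (42 and 33) or control pool 2 (6 and 25) was dropped, in fits where the lone pool of a diet is assumed to vary like the other. The pool numbers are not stated to pair the samples. With the replicate block, 261 were higher and 218 lower, and the pool 1 minus pool 2 differences of the iron-deficient diet correlated at 0.36 with those of the control diet across probe sets, as a hint from the data only. Medians of 7 of 17 lists changed sign in 16 of 221 recomputations, and 15 moved beyond the spread between pools. Granulocyte markers ranged from 1.88 to 3.59, skeletal muscle from 0.20 to 2.91, sex-linked genes from -4.84 to -0.25 and lipocalin partners from -1.20 to 0.17. At an unadjusted p of 0.05 the split of 309 higher and 760 lower became 753 and 601 after median centring and 424 and 617 after quantile normalization. The cause of these changes was not tested. Signals close to or below background limit Defb1 in iron-deficient pool 1 and leave Pigr without a value.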
